A study of Mus musculus with 6 samples.

Results

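The 8 genes described here encode amino acid transporters and transporter subunits of the kidney proximal tubule: Slc6a18, Slc6a19, Slc7a7, Slc7a8, Slc7a9, Slc3a1, Slc3a2 and Slc1a1. They were taken by symbol from the gene lists of the matrices, and 8 of the 32285 listed genes matched, each with 1 row. Their levels were followed in 6 sections of mouse kidney, measured with 10x Genomics Visium, in which barcoded spots on a slide capture the RNA of the tissue lying over them. The study asked about the kidney in Alport syndrome (AS), in which inherited faults in type IV collagen damage the glomerular filter, and about hEV treatment. The first library was early treated 5m AS and the second late treated 5m AS, both of genotype B6.Cg-Col4a5tm1Yseg with hEV treatment, at 5 months. The third was 2m AS and the fourth 5m AS, of the same genotype with no treatment named, at 2 and 5 months. The fifth library held WT Female & Hetero Female kidney together, of genotypes B6C57 and B6.Cg-Col4a5tm1Yseg, and is called the mixed female library. The sixth was WT, of genotype B6C57. The ages of the last 2 libraries, the dose and dates of hEV, and what early and late refer to were not found in the labels. With 1 library in every group, no difference has a replicate check, no test was run, and every comparison is between sections.

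Filtered amino acids are taken back almost entirely by the proximal tubule, through carriers in the apical brush border and a second set in the basolateral membrane. Some carriers are single proteins, while others are pairs of a light subunit that forms the transport path and a heavy subunit that brings it to the membrane. In the first segment of the tubule transport is of high capacity, and farther along the late, straight segment recovers what remains. In human, loss of several of these genes gives inherited amino acid wasting: Hartnup disorder for SLC6A19, cystinuria for SLC3A1 and SLC7A9, lysinuric protein intolerance for SLC7A7 and dicarboxylic aminoaciduria for SLC1A1.

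The libraries held 48940875 to 91976637 unique molecular identifiers (UMIs) over 1997 to 4093 spots, with a median of 12736 to 28433 UMIs per spot. Levels below are scaled CPM, the UMIs of a gene summed over a library and set against its total after TMM adjustment. Intervals are exact 95% intervals that cover counting error only, and a floor of 3 counts lay at 0.0407 to 0.0521 scaled CPM. Col4a5, the gene named in the genotype, stood at 3.39 to 6.54 scaled CPM in the 4 AS libraries, at 13.2 in the mixed female library and at 11.9 in WT. Xist was at 22.1 scaled CPM in the mixed female library and held at most 11 UMIs in each of the other 5, while Ddx3y held 0 UMIs in the mixed female library and 1302 to 1826 in the others. The mixed female library therefore differs from WT in sex as well. Mitochondrially encoded genes took 6.003% to 8.32% of the UMIs in 5 libraries and 11.9% in WT. Kap, an abundant gene of the tubule, took 2.72% to 10.3%. WT and 5m AS were counted with Space Ranger 1.2.1 and the other 4 libraries with 1.3.1, so version and group cannot be told apart in any comparison of WT or 5m AS with one of those 4. Position barcodes recur between slides by design, and 1361 to 3083 were shared by a pair of libraries.

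Slc6a19 and Slc6a18 lie next to each other on chromosome 13 of mm10, both on the minus strand. Slc6a18 (ENSMUSG00000021612) runs from 73661752 to 73678023 and Slc6a19 (ENSMUSG00000021565) from 73679745 to 73704865, which leaves a gap of 1721 bases. Slc6a19 encodes B0AT1, the sodium-dependent carrier of neutral amino acids in the brush border, and Slc6a18 encodes B0AT3, a related carrier of the late segment. Slc7a7 (ENSMUSG00000000958, from 54369442 to 54417780) and Slc7a8 (ENSMUSG00000022180, from 54722209 to 54781946) lie on chromosome 14, minus strand, 304428 bases apart. Slc7a9 (ENSMUSG00000030492) lies on chromosome 7 from 35448796 to 35466036 and Slc3a1 (ENSMUSG00000024131) on chromosome 17 from 85028376 to 85064236, both on the plus strand. Slc3a2 (ENSMUSG00000010095, minus strand, from 8706882 to 8723369) and Slc1a1 (ENSMUSG00000024935, plus strand, from 28835049 to 28913960) lie on chromosome 19. All 8 are annotated as protein coding. A gene on the opposite strand overlaps Slc6a19 (Slc6a19os, 33 UMIs over all libraries), Slc7a7 (Oxa1l, 27049 UMIs), Slc3a1 (Prepl, 5302 UMIs) and Slc1a1 (4430402I18Rik, 3964 UMIs). The handling of strand is not given in the sources used here, so reads from the shared stretches cannot be told apart.

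RefSeq start sites (build GRCm38.p6, the assembly that mm10 names) gave promoter windows for 7 of the 8 genes, 12 windows in all, each from 250 bases before to 50 bases after a start. No window of Slc6a18 was used here. 3 are printed to show how the starts differ between a carrier of the early segment (Slc6a19, chr13:73692587-73692886, minus strand), a heavy subunit that was high in late-segment spots (Slc3a1, chr17:85028097-85028396, plus strand) and the broadly used heavy subunit (Slc3a2, chr19:8713848-8714147, minus strand). They read 5′ to 3′ along the gene. The Slc6a19 and Slc3a2 windows lie inside the gene spans given above, which come from GENCODE.
Slc6a19: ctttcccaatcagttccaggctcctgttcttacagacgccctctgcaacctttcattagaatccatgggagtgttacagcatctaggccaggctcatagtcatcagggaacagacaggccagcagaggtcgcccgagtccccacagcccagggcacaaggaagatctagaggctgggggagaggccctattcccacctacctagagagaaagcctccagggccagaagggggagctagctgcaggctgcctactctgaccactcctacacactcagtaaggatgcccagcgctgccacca
Slc3a1: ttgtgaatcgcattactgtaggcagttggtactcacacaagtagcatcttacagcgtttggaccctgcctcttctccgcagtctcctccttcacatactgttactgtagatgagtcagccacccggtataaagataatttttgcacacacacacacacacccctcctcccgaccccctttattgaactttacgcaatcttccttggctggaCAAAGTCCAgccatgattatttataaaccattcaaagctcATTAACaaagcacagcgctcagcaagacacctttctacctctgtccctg
Slc3a2: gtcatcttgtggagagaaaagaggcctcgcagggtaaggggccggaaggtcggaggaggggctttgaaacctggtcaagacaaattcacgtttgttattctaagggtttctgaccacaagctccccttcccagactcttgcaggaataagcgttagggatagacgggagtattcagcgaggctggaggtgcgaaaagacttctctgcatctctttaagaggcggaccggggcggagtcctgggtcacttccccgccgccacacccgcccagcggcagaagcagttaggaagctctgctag
Capitals mark matches, on either strand, to GTTAAT (an HNF1 half-site), CAAAGTCCA (an HNF4 direct repeat) or TGATGCAA (an ATF4 composite site). The Slc3a1 window held CAAAGTCCA at -39 and GTTAAT, read on the other strand as printed, at 2, with the start at 1. Those letters occurred in 0.479% and 7.13% of 32544 RefSeq promoter windows of the same length. TATAAA, found in 13.6% of the windows, stood in the Slc3a1 window at -124 and, as a pair of overlapping matches on both strands, at -20 and -18. The Slc6a19 window held none of the 3 capitalised motifs and 1 CCAAT, at -245, which 37.4% of the windows hold. The Slc3a2 window held GGGCGG at -22 and 14, a GC box present in 35.9% of the windows. TGATGCAA, in 0.867% of all windows, matched only in 2 overlapping windows of Slc7a7 among the 12. A match is a description of the letters and not a binding site.

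Slc6a19 differed most between the libraries, by 6.13-fold from lowest to highest. It stood at 182 scaled CPM in early treated, 407 in late treated, 401 in 2m AS, 66.4 in 5m AS, 312 in the mixed female library and 303 in WT. The 5m AS section was thus the low one, and late treated and 2m AS were the high ones, with a ratio between those 2 of 1.01 (interval 0.998 to 1.03). With every spot thinned to 5000 UMIs, Slc6a19 was seen in 58.9% of spots in early treated, 82.2% in late treated, 67.2% in 2m AS, 28.8% in 5m AS, 69.3% in the mixed female library and 66.0% in WT. The same spots before thinning gave 83.6% in early treated, 97.9% in late treated, 94.1% in 2m AS, 68.3% in 5m AS, 96.0% in the mixed female library and 92.9% in WT, at unequal depth. The 5m AS section was lowest on both counts, and thinning left out 65 to 626 spots per library that were shallower.

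Slc6a18 had another order. It stood at 145 scaled CPM in early treated, 153 in late treated, 231 in 2m AS, 312 in 5m AS, 288 in the mixed female library and 290 in WT. Here the 2 treated sections were low and 5m AS was the highest, and the mixed female library and WT did not differ beyond counting error (ratio 0.994, interval 0.975 to 1.01).

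The light subunits Slc7a7, Slc7a8 and Slc7a9 shared the low value in 5m AS. Slc7a7 encodes y+LAT1, the basolateral exporter of cationic amino acids, and stood at 170 scaled CPM in early treated, 222 in late treated, 165 in 2m AS, 91.8 in 5m AS, 208 in the mixed female library and 174 in WT. Slc7a8 encodes LAT2, a basolateral exchanger of neutral amino acids, and stood at 55.7 scaled CPM in early treated, 86.7 in late treated, 65.2 in 2m AS, 31.9 in 5m AS, 121 in the mixed female library and 62.4 in WT. Slc7a9 encodes b0,+AT, the brush-border exchanger of cystine and cationic amino acids, and stood at 120 scaled CPM in early treated, 155 in late treated, 162 in 2m AS, 77.6 in 5m AS, 195 in the mixed female library and 126 in WT. In all 3 the 5m AS section was the lowest, and in Slc7a8 and Slc7a9 the mixed female library was the highest. For Slc7a7, early treated and WT did not differ beyond counting error (ratio 0.974, interval 0.949 to 1.001).

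The heavy subunit Slc3a1 did not follow its light partner, while Slc3a2 shared its lowest and highest libraries with Slc7a8. Slc3a1 encodes rBAT, the partner of b0,+AT in the brush border, and stood at 214 scaled CPM in early treated, 224 in late treated, 400 in 2m AS, 330 in 5m AS, 398 in the mixed female library and 375 in WT. The treated sections were the low ones, and 2m AS and the mixed female library did not differ beyond counting error (ratio 1.004, interval 0.988 to 1.02). Slc3a2 encodes 4F2hc (CD98), the partner of y+LAT1 and LAT2 and of further light subunits in many cell types. It stood at 169 scaled CPM in early treated, 169 in late treated, 136 in 2m AS, 131 in 5m AS, 248 in the mixed female library and 163 in WT. The mixed female library was high and the other 5 lay closer together, with 5m AS the lowest. Slc1a1 encodes EAAC1 (EAAT3), the brush-border carrier of glutamate and aspartate, and varied least, by 1.64-fold from lowest to highest. It stood at 102 scaled CPM in early treated, 146 in late treated, 143 in 2m AS, 123 in 5m AS, 111 in the mixed female library and 168 in WT.

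**Figure D1:**
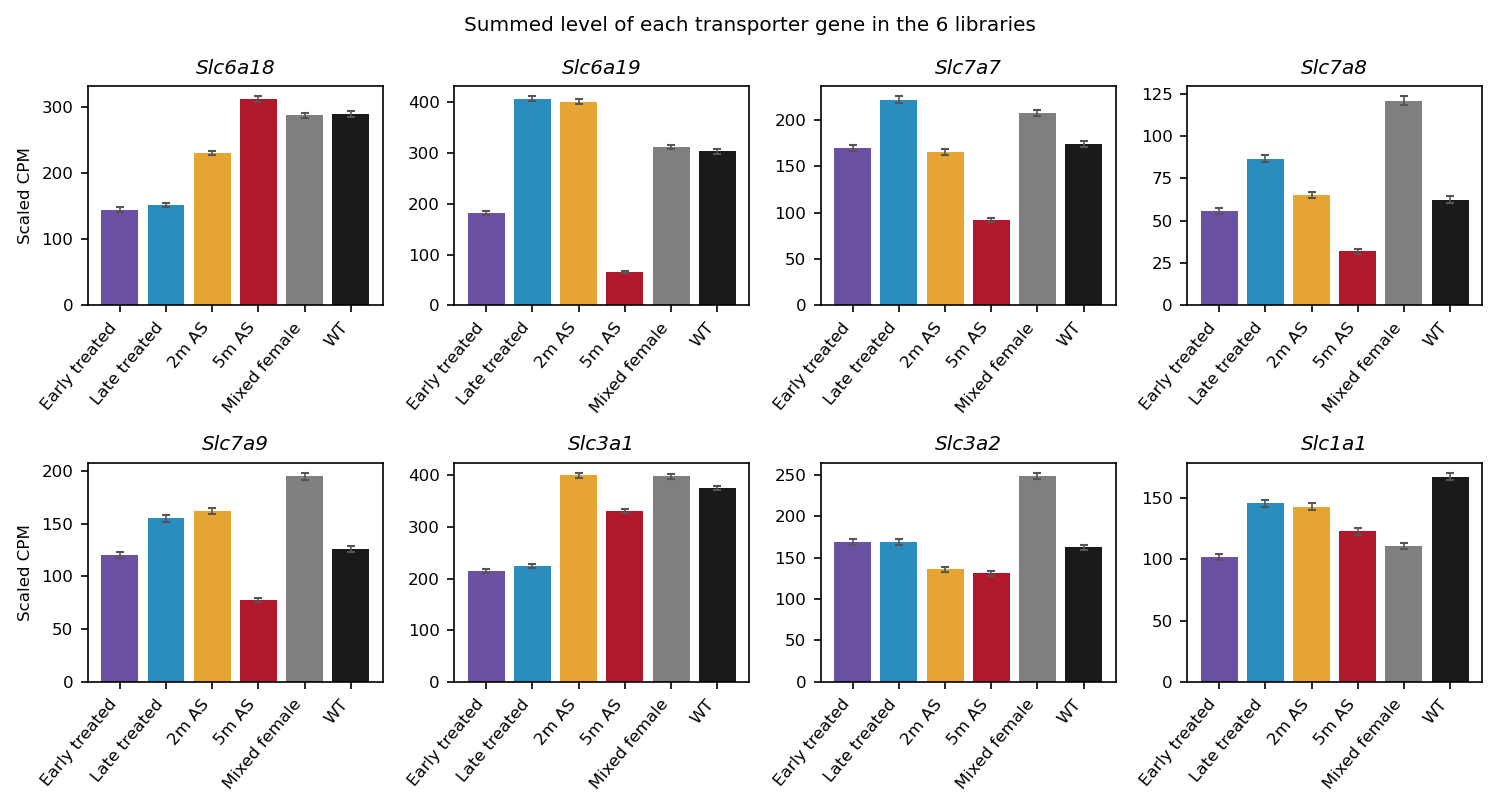
Scaled CPM of each of the 8 transporter genes (vertical axes, each from 0) in the 6 libraries, with exact 95% counting intervals as error bars and 1 library per bar. Slc6a19 stands at 66.4 in 5m AS against 303 in WT, while Slc6a18 is low in the early and late treated libraries, at 145 and 153.

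The place of each gene along the tubule was read from spots. Spots with at least 500 UMIs were ranked within each library by the share of their UMIs that fell on 8 markers of the early proximal tubule, or on 9 of the late proximal tubule, none of them a member, and divided into 5 equal bins, from the poorest to the richest. A spot covers several cells, so these are kinds of tissue and not cell types. Gradients below are the level in the richest over that in the poorest bin, and no p is attached because spots of 1 section share a library and its depth.

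Slc6a19 followed the early markers in every library. In 2m AS it stood at 959 scaled CPM in the richest bin and 75.4 in the poorest, and in WT at 485 in the richest and 160 in the poorest. The gradient was 4.05 in early treated, 3.99 in late treated, 12.7 in 2m AS, 8.87 in 5m AS, 5.47 in the mixed female library and 3.03 in WT. In 5m AS the gradient was therefore still present on a low level, with 153 scaled CPM in the richest bin and 17.2 in the poorest. Over spots, its Spearman correlation with the early share was 0.50 to 0.79 in the 6 libraries, over 1992 to 4091 spots each. Slc7a7 followed the same markers, with gradients of 2.52 (WT) to 7.69 (2m AS), as did Slc7a8 with 2.02 (WT) to 9.13 (2m AS), Slc7a9 with 1.91 (WT) to 4.03 (2m AS) and Slc3a2 with 1.46 (early treated) to 4.85 (2m AS).

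Slc6a18 followed the late markers in every library. The gradient by the late share was 4.78 in early treated, 5.06 in late treated, 5.22 in 2m AS, 5.00 in 5m AS, 12.5 in the mixed female library and 3.26 in WT. The mixed female library had the steepest gradient, with 631 scaled CPM in the richest bin and 50.5 in the poorest. Slc3a1 followed with 2.00 (WT) to 3.80 (5m AS) and Slc1a1 with 1.51 (2m AS) to 2.68 (mixed female). By the early share Slc3a1 and Slc1a1 were split by library. Slc3a1 was at 2.28 in early treated and 1.55 in late treated, and at 0.534 in 2m AS, 0.555 in 5m AS, 0.561 in the mixed female library and 0.818 in WT. Slc1a1 likewise stood at 2.10 in early treated and 1.78 in late treated and at 0.756 to 1.02 in the other 4. In the treated sections, then, the spots poor in early markers were also poor in Slc3a1 and Slc1a1. Slc6a18 had a gradient by the early share of 1.26 in early treated, 0.745 in late treated, 0.277 in 2m AS, 0.429 in 5m AS, 0.178 in the mixed female library and 0.624 in WT.

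That split bears on what the late ranking measures. Acy3 alone held 50.4% to 67.9% of the UMIs of the late list, and 4 other genes of the list (Slc22a7, Slc22a13, Cyp7b1 and Serpina1f) summed to 16.3 scaled CPM in early treated and 24.0 in late treated, against 384 in 2m AS, 542 in 5m AS, 438 in the mixed female library and 152 in WT. When those 4 genes alone ranked the spots of the 4 libraries where they were present, a choice made after seeing the data, Slc6a18 had a gradient of 3.12 in 2m AS, 3.52 in 5m AS, 6.52 in the mixed female library and 2.13 in WT. Slc3a1 had 2.10 in 2m AS, 2.78 in 5m AS, 2.67 in the mixed female library and 1.77 in WT, so both genes again followed late markers. Slco1a1, another gene of the late list, held 2 UMIs in the mixed female library. Depth moved with the ranking in all but WT: the median spot held 18003.5 UMIs in the richest late bin of early treated and 8843 in the poorest, and 17523.5 and 17584 in those bins of WT.

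**Figure D2:**
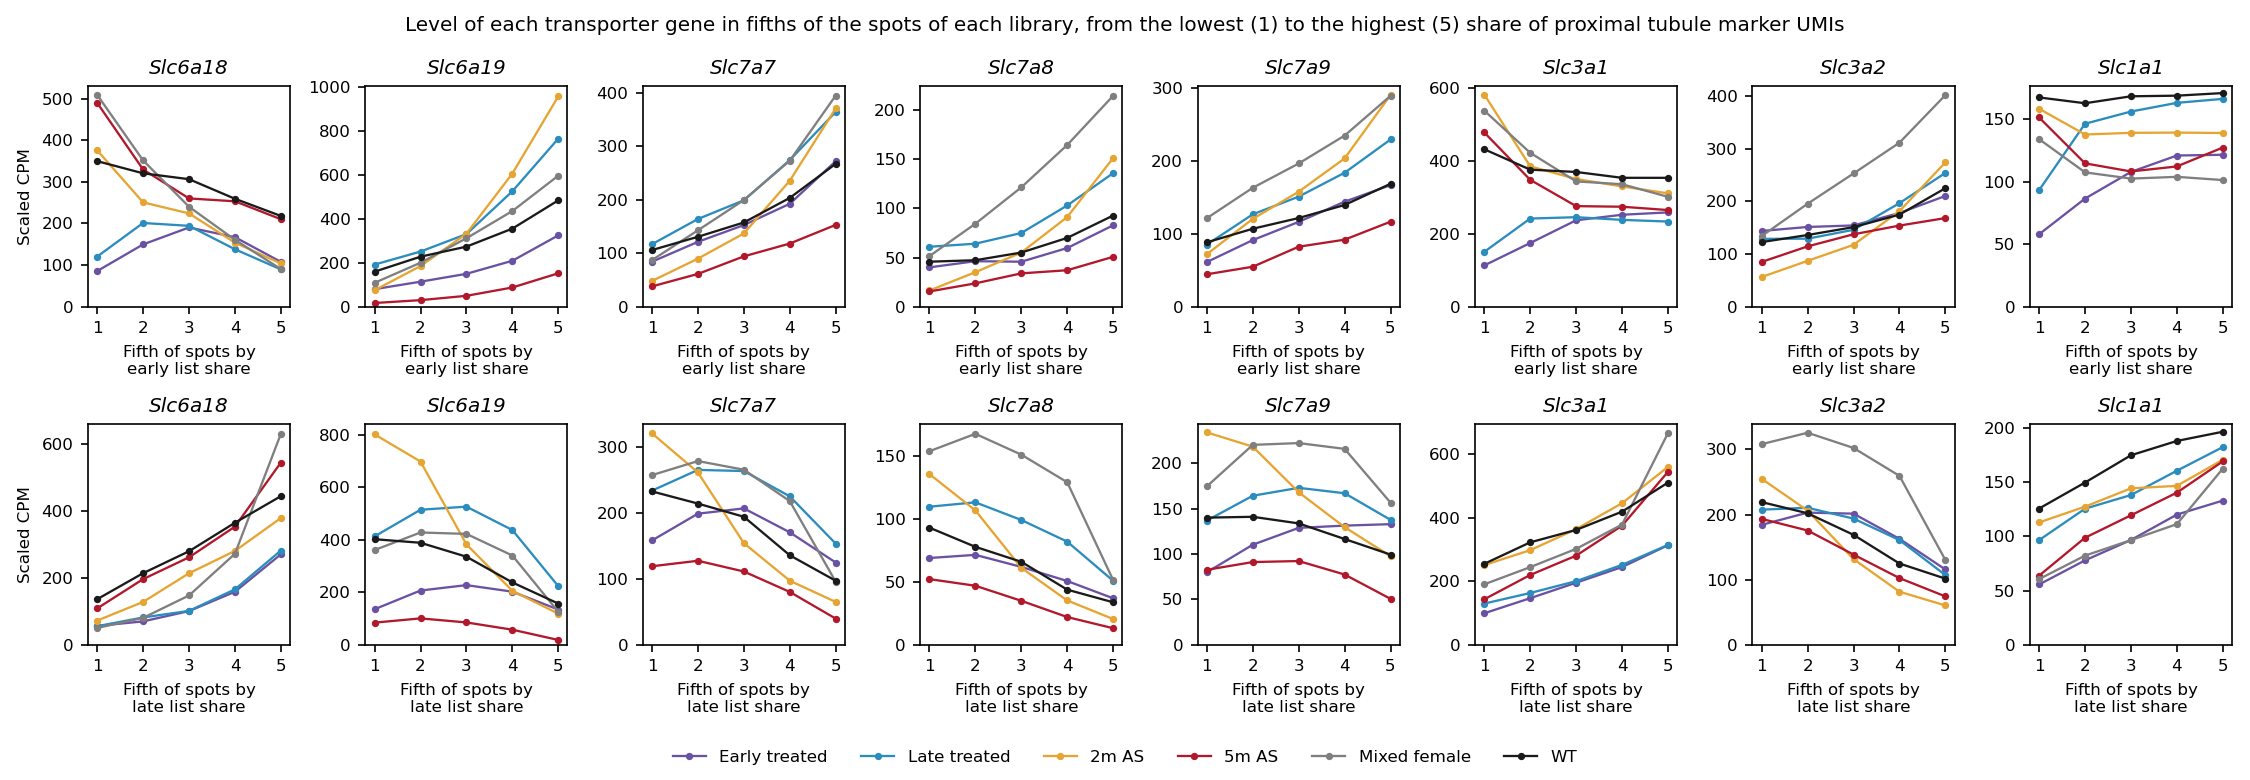
Scaled CPM of each transporter gene (vertical axes) in 5 equal bins of the spots of each library, ordered from the lowest to the highest share of early (top row) or late (bottom row) proximal tubule marker UMIs, 1 line per library. Slc6a19 climbs with the early share in every library and Slc6a18 with the late share, while the 5m AS line of Slc6a19 stays lowest, at 153 in its richest early bin.

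Among pairs of members, Slc7a9 and its heavy subunit Slc3a1 had a Spearman correlation over spots of 0.27 in early treated, 0.15 in late treated, -0.21 in 2m AS, -0.11 in 5m AS, 0.07 in the mixed female library and -0.05 in WT. These values were weak and differed in sign between libraries, so they are not read as a relation. By the late share, Slc7a9 had a gradient of 1.66 in early treated, 1.01 in late treated and 0.417 to 0.897 in the other 4. Slc6a18 and Slc3a1 went together, at 0.32 to 0.65, and so did Slc6a19 and Slc7a7, at 0.38 to 0.66. The neighbouring genes Slc6a18 and Slc6a19 had -0.09 in early treated and -0.29 to -0.54 in the other 5. All points of a library share its depth, and Slc6a18 itself had a correlation of -0.03 to 0.44 with the UMIs per spot.

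The genes most like each transporter were named by the mean over 6 libraries of the Pearson correlation over spots of log2(CPM per spot + 100), among 7199 genes. Gpx3, a secreted glutathione peroxidase made by the proximal tubule, came first for Slc6a19 (mean r 0.617), Slc7a7 (0.575), Slc7a8 (0.399) and Slc3a2 (0.445). Second were Gatm, an enzyme of creatine synthesis, for Slc6a19 (0.610), and Slc5a2, the glucose carrier SGLT2 of the early segment, for Slc7a7 (0.492), Slc7a8 (0.375) and Slc3a2 (0.410). Kap, the androgen-regulated kidney protein gene, came first for Slc6a18 (0.638) and Slc3a1 (0.532), followed by the protease genes Napsa (0.617) for Slc6a18 and Mep1a (0.513) for Slc3a1. For Slc7a9 they were Ass1 (0.371) and Slc34a1 (0.363), and for Slc1a1 Slc27a2 (0.339) and Kap (0.333). These correlations are descriptions over spots that share a library and its depth.

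In the 2m AS section none of the 8 was at least 1.5-fold higher than in WT, a criterion that 8.57% of 6607 tested genes passed. None was at least 1.5-fold lower, which 7.27% passed, so the counts for the 8 were near those shares. Genes counted as tested where either library of the pair reached 20 scaled CPM, as all 8 did in every comparison. The ratios of 2m AS over WT ran from 0.797 (interval 0.781 to 0.814) for Slc6a18 to 1.32 (1.299 to 1.35) for Slc6a19, with a median log2 ratio of -0.01 over the 8 and -0.03 over all tested genes. In early-marker spots Slc6a19 stood at 832 scaled CPM in 2m AS against 482 in WT, and in late-marker spots at 163 against 211. Within single classes of spots, described below, some ratios to WT did pass 1.5-fold. They reached 1.73 for Slc6a19 in early-marker spots and 1.65 for Slc7a9 in podocyte-marker spots. Slc6a18 fell to 0.566 in early-marker spots, and Slc3a2 and Slc7a8 to 0.619 and 0.665 in late-marker spots. Each is the most extreme class ratio of its gene in that direction, and further ratios past 1.5-fold are not listed. The share of all genes past 1.5-fold within a class was not counted.

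In the 5m AS section 4 of the 8 transporters were at least 1.5-fold lower than in WT, whose age was not found, and none was at least 1.5-fold higher. The share of all 6795 tested genes was 14.6% for lower and 8.04% for higher. The 4 were Slc6a19 at a ratio of 0.219 (interval 0.211 to 0.226), Slc7a8 at 0.511 (0.484 to 0.539), Slc7a7 at 0.527 (0.511 to 0.544) and Slc7a9 at 0.615 (0.593 to 0.638). The others stood at 0.735 for Slc1a1, 0.806 for Slc3a2, 0.881 for Slc3a1 and 1.08 for Slc6a18. The 4 low genes are among the 5 that followed the early markers, and the fifth, Slc3a2, was not called. The median log2 ratio was -0.57 over the 8 and -0.20 over all tested genes.

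With TMM scaling, the difference was present in each kind of spot for those 4 genes. When spots were put in 6 classes by the segment list that stood highest over its library mean, Slc6a19 was lower in 5m AS than in WT in 6 of 6 classes. The classes were named for early and late proximal tubule, thick ascending limb, distal tubule, collecting duct and podocyte, and the ratios ran from 0.106 in late-marker spots to 0.336 in distal-marker spots. In early-marker spots it stood at 114 scaled CPM in 5m AS against 482 in WT. Slc7a7, at 0.396 to 0.651, Slc7a8, at 0.347 to 0.8005, and Slc7a9, at 0.476 to 0.701, also stood below WT in 6 of 6 classes. With plain CPM, which moves these log2 ratios by 0.40, Slc7a8 in distal-marker spots would stand above WT. Slc6a18 stood above WT in 3 classes and below it in 3, and reached 531 scaled CPM in late-marker spots of 5m AS against 405 in WT. The classes are ranges of a score and not cell types. Each is set against the mean of its own library, so a class need not be the same tissue in 5m AS and WT.

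Other measures moved with 5m AS. The 10 general proximal tubule markers, which include the megalin gene Lrp2 and the phosphate carrier Slc34a1, summed to 10444 scaled CPM in 5m AS against 23502 in WT, and 10 of 10 were at least 1.5-fold lower. The early markers were lower in 8 of 8 as well, with a median log2 ratio of -1.22. Other segments differed too. Distal tubule markers summed to 461 scaled CPM in 5m AS against 1432 in WT, and intercalated cell markers to 155 against 562. Thick ascending limb markers summed to 4913 against 3127. Late proximal markers summed to 2949 against 5118, with 3 of 9 genes higher and 3 lower. Collecting duct and podocyte markers lay close to WT, at 722 against 702 and 247 against 243. The 8 macrophage markers summed to 2747 scaled CPM against 472, and the 11 tubular injury markers to 7777 against 1512, of which Spp1 took 79.7% in 5m AS and 44.0% in WT. The 6 stress genes, which include heat-shock genes, summed to 845 against 321. In a section, fewer proximal cells and less RNA per cell cannot be told apart, and the part of these measures in the result was not tested. Per UMI of the general proximal list, Slc6a19 was lower at a log2 ratio of -1.02, whereas Slc7a7, Slc7a8 and Slc7a9 stood at 0.25, 0.20 and 0.47. With that denominator 4 of the 8 genes (Slc6a18, Slc3a1, Slc3a2 and Slc1a1) were at least 1.5-fold higher. The list was itself lower in 5m AS, so this denominator raises the ratio of every gene alike. The share of all genes past the criterion with it was not counted. Plain CPM moved every log2 ratio of 5m AS over WT by 0.40, and then Slc6a19 alone was at least 1.5-fold lower, at -1.79, with Slc7a8 at -0.57, Slc7a7 at -0.52 and Slc7a9 at -0.30. Slc3a1 and Slc3a2, not called either way, changed side with plain CPM, to 0.22 and 0.09.

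Against the 2m AS section, the 5m AS section was at least 1.5-fold lower in the same 4 genes and higher in none, beside 24.9% of 6806 tested genes for lower and 11.8% for higher. Slc6a19 had a ratio of 0.165 (interval 0.160 to 0.171), Slc7a9 0.479 (0.463 to 0.496), Slc7a8 0.489 (0.463 to 0.515) and Slc7a7 0.556 (0.539 to 0.574). Slc6a18 stood at 1.35, Slc3a2 at 0.964, Slc1a1 at 0.860 and Slc3a1 at 0.827. This comparison shares the 5m AS library with the one against WT, so the recurrence of the 4 genes is not independent. The median log2 ratio was -0.56 over the 8 and -0.18 over all genes. Plain CPM moved these log2 ratios by 0.50, and Slc6a19 alone was then called lower, at -2.10, and Slc6a18 was called higher, at 0.93. Per UMI of the general proximal list Slc6a19 stood at -1.59, and Slc7a7 changed side, to 0.16.

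**Figure D3:**
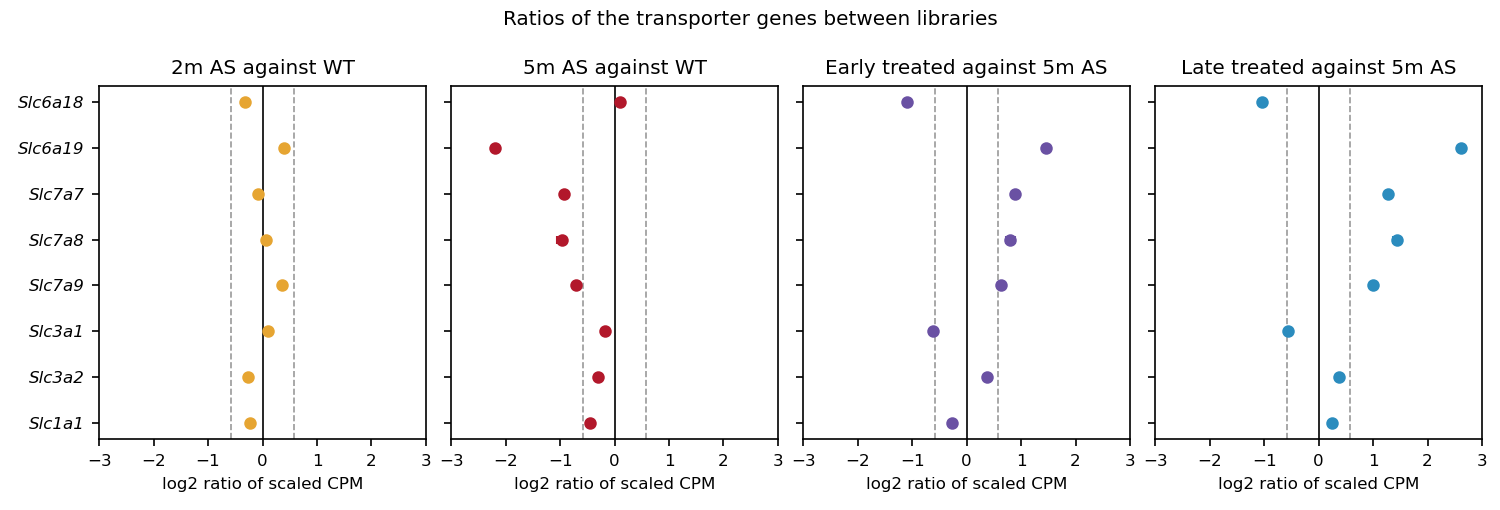
Log2 ratio of scaled CPM of each transporter gene (rows) for 4 pairs of libraries, with 95% counting intervals, most of them narrower than the point, and dashed lines at 1.5-fold. Slc6a19, Slc7a7, Slc7a8 and Slc7a9 lie below the lower line in 5m AS against WT, and above the upper line in both treated libraries against 5m AS, while Slc6a18 lies below the lower line there.

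In the early treated section, 4 of the 8 transporters exceeded 5m AS by 1.5-fold or more, beside 3.90% of 6591 tested genes, and 2 were lower by as much, beside 4.25%. The higher ones were Slc6a19 at 2.74 (interval 2.64 to 2.84), Slc7a7 at 1.85 (1.79 to 1.91), Slc7a8 at 1.75 (1.65 to 1.85) and Slc7a9 at 1.55 (1.49 to 1.61). The lower ones were Slc6a18 at 0.465 (0.454 to 0.478) and Slc3a1 at 0.649 (0.634 to 0.664). With plain CPM Slc3a1 missed the criterion, at a log2 ratio of -0.57. Slc3a2 stood at 1.29 and Slc1a1 at 0.830. The median log2 ratio was 0.50 over the 8 and -0.0033 over all tested genes.

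In the late treated section, the same 4 genes exceeded 5m AS by 1.5-fold or more, beside 7.81% of 6675 tested genes, and 1 was lower, beside 10.2%. Slc6a19 reached a ratio of 6.13 (interval 5.93 to 6.34), Slc7a8 2.72 (2.58 to 2.87), Slc7a7 2.41 (2.34 to 2.49) and Slc7a9 2.00 (1.93 to 2.07). Slc6a18 was lower at 0.489 (0.477 to 0.501), and Slc3a1 at 0.678 fell short of the criterion. Slc3a2 stood at 1.29 and Slc1a1 at 1.19. Both treated comparisons share the 5m AS library, which was low in the 4 genes, and so do not repeat each other independently. Set against WT, Slc6a19 had a ratio of 0.600 (0.586 to 0.614) in early treated and 1.34 (1.32 to 1.37) in late treated, and Slc6a18 had 0.501 in early treated and 0.526 in late treated. With plain CPM these log2 ratios to WT were -0.28 in early treated and 0.87 in late treated for Slc6a19, and -0.54 in early treated and -0.48 in late treated for Slc6a18.

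Within the 6 classes of spots, Slc6a19 stood above 5m AS in 6 of 6 in early treated, at 1.498 to 5.95, and in 6 of 6 in late treated, at 3.36 to 12.5. In early-marker spots it stood at 320 scaled CPM in early treated and 716 in late treated, against 114 in 5m AS. The other genes called higher were less even in early treated. Slc7a7, at 1.18 to 2.88, and Slc7a8, at 1.04 to 2.73, stood above 5m AS in 6 of 6 classes. Slc7a9 did so in 5 of 6, at 0.933 to 2.38. In late treated all were above in 6 of 6, Slc7a7 at 1.57 to 3.78, Slc7a8 at 1.52 to 4.38 and Slc7a9 at 1.48 to 2.69. Slc6a18 was lower than in 5m AS in 6 of 6 classes in both treated sections, and in late-marker spots it stood at 258 scaled CPM in early treated and 259 in late treated, against 531 in 5m AS. Slc3a1 in those spots stood at 303 scaled CPM in early treated and 299 in late treated, against 535 in 5m AS. Each class is set against the mean of its own library. The 4 late genes ranked apart above summed to 16.3 in early treated and 24.0 in late treated, against 542 in 5m AS. Late-marker spots therefore need not be the same tissue in these sections.

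The treated sections differed from 5m AS in other ways that stand beside these results. General proximal markers summed to 15174 scaled CPM in early treated and 17379 in late treated, against 10444 in 5m AS. Injury markers summed to 5787 in early treated and 3047 in late treated, against 7777 in 5m AS, and macrophage markers to 1429 in early treated and 1133 in late treated, against 2747 in 5m AS. The 6 stress genes summed to 236 in early treated and 127 in late treated, against 845 in 5m AS. Distal tubule markers summed to 1169 in early treated and 1341 in late treated, against 461 in 5m AS, and thick ascending limb markers to 2832 in early treated and 2804 in late treated, against 4913 in 5m AS. Late markers summed to 2069 in early treated and 2776 in late treated, against 2949 in 5m AS. The 4 late genes named above were nearly absent, with Serpina1f, a serpin gene, at 1.37 scaled CPM in early treated and 1.39 in late treated, against 251 in 5m AS. The 5m AS level of Serpina1f was itself above WT, at a log2 ratio of 4.09. Whether the sections hold less of the late segment, or less of these RNAs in it, cannot be told apart, and the part of any of these lists in the transporter values was not tested. Per UMI of the general proximal list, early treated was at least 1.5-fold higher than 5m AS for 1 gene, Slc6a19 at a log2 ratio of 0.92. Late treated was so for 2 genes, Slc6a19 at 1.88 and Slc7a8 at 0.71. Slc6a18, Slc3a1 and Slc1a1 were then at least 1.5-fold lower in early treated, and Slc6a18 and Slc3a1 in late treated. The list was higher in both treated sections, so this denominator lowers every gene alike, and the share of all genes was not counted. With that denominator, Slc3a2 and Slc1a1, not called either way, stood at -0.37 and -0.49 in late treated against 5m AS.

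Early treated stood at least 1.5-fold below late treated in 2 of the 8 genes and above it in none, beside 1.85% of 6474 tested genes for lower and 3.35% for higher. Slc6a19 had a ratio of 0.447 (interval 0.437 to 0.457) and Slc7a8 0.642 (0.615 to 0.671). Per UMI of the general proximal list Slc7a8 missed the criterion, at a log2 ratio of -0.44, and Slc6a19 stood at -0.97. The others ran from 0.700 for Slc1a1 to 0.9995 for Slc3a2, with a median log2 ratio of -0.38 over the 8 and 0.02 over all tested genes. Slc6a19 was lower in 6 of 6 classes, at 0.378 to 0.503. Spots were shallower in early treated, with a median of 12736 UMIs against 18187 in late treated, and injury markers summed to 5787 scaled CPM in early treated against 3047 in late treated.

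**Figure D4:**
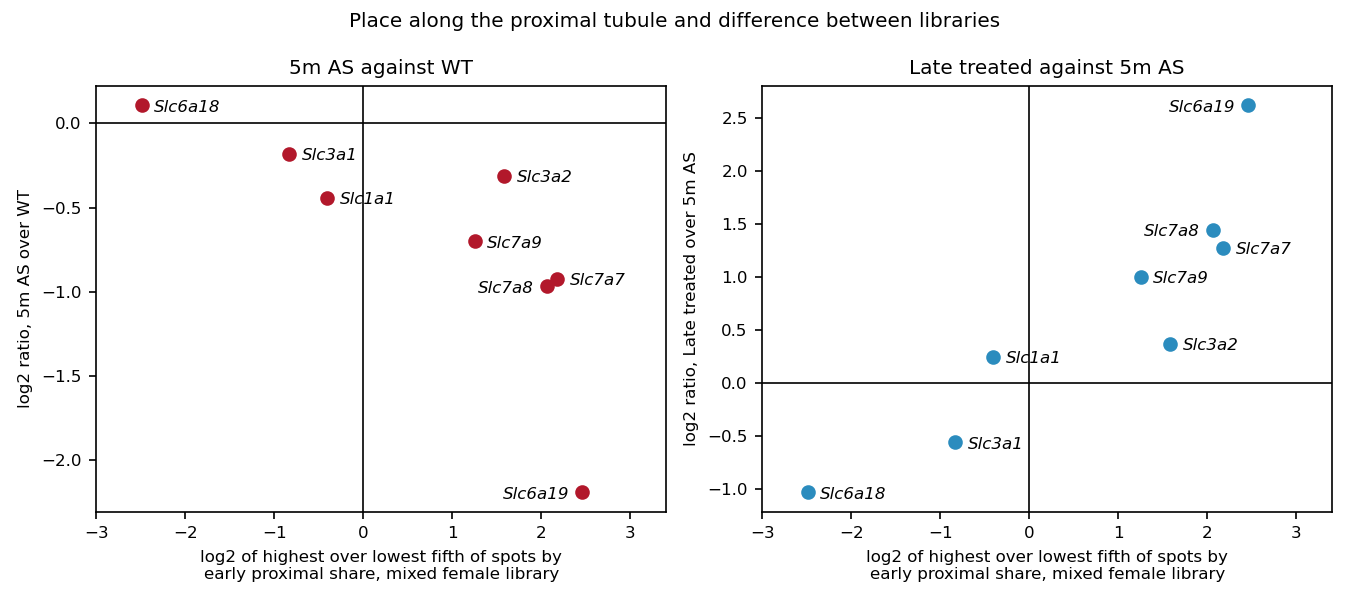
Each point is 1 transporter gene, placed by the log2 of its gradient, richest over poorest bin of spots by early marker share, in the mixed female library (horizontal) and by its log2 ratio between libraries (vertical), for 5m AS against WT on the left and late treated against 5m AS on the right. Slc6a19 lies at the early end with -2.19 on the left and 2.62 on the right, Slc6a18 lies at the late end with 0.11 and -1.03, and Slc3a2 lies nearer 0 than the other genes at the early end; both panels use the 5m AS library.

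The place of each gene was also taken from the mixed female library, which enters neither comparison plotted against it. Ordered by their early gradient there (Slc6a19, Slc7a7, Slc7a8, Slc3a2, Slc7a9, Slc1a1, Slc3a1, Slc6a18), the genes were in the order of their 5m AS over WT ratios apart from Slc3a2 and the close pair Slc7a7 and Slc7a8. It is a description over 8 genes, and the late treated ratios share the 5m AS library. Slc3a2 had a gradient of 2.99 in the mixed female library but log2 ratios of -0.31 in 5m AS against WT and 0.37 in late treated against 5m AS. By macrophage marker share in 5m AS, Slc3a2 had a gradient of 1.43 and Slc7a8 of 1.45, against 0.519 for Slc6a18, 0.503 for Slc3a1, 0.506 for Slc1a1 and 0.696 for Slc6a19. Spearman correlations with that share in 5m AS were weak, at 0.18 for Slc3a2, 0.07 for Slc7a8, -0.03 for Slc7a7 and -0.14 for Slc7a9. In the other libraries Slc3a2 had -0.03 to 0.06. The part of macrophages in the Slc3a2 values was not tested.

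By injury marker share, Slc6a19 ran in opposite directions in different libraries. Its gradient was 0.530 in early treated, 0.915 in late treated, 3.58 in 2m AS, 0.583 in 5m AS, 2.82 in the mixed female library and 1.41 in WT. Havcr1, which encodes the injury marker KIM-1, stood at 94.0 scaled CPM in early treated, 21.1 in late treated, 9.02 in 2m AS, 152 in 5m AS, 0.703 in the mixed female library and 0.395 in WT. The libraries in which this gradient of Slc6a19 lay below 1 were thus the 3 with most Havcr1. In late treated it was nearly flat, with a Spearman correlation of -0.09 with the injury share. Spp1, which parts of the healthy tubule also express, took 44.0% to 79.7% of the injury list. Slc6a18 had gradients of 0.123 to 0.673, below 1 in 6 of 6 libraries.

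Against WT, the mixed female library had higher Slc7a8 at a ratio of 1.93 (interval 1.86 to 2.01), Slc7a9 at 1.55 (1.504 to 1.59) and Slc3a2 at 1.53 (1.49 to 1.57), and lower Slc1a1 at 0.664 (0.645 to 0.683), beside 7.34% of 6636 tested genes for higher and 9.96% for lower. Slc1a1 missed the criterion with plain CPM, at a log2 ratio of -0.47, and with median-of-ratios factors, at -0.55. Slc6a19 at 1.03 and Slc6a18 at 0.994 lay close to WT. The 2 animals in that library, their genotypes, their sex and the software version cannot be told apart in these values. Slc7a8, Slc7a9 and Slc3a2 stood above WT in 6 of 6 classes of spots, and Slc1a1 below it in 6 of 6.

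Of 32 further amino acid transporters and partners of the tubule found in the files, 17 had at least 20 scaled CPM in 5m AS or WT. In 5m AS, 6 of these were at least 1.5-fold lower than in WT, beside 14.6% of all tested genes, and 3 higher, beside 8.04%, and the median over the 17 was -0.18 on the log2 scale. Cltrn, collectrin, which brings B0AT1 and B0AT3 to the brush border, was lower at a log2 ratio of -1.02 and stood at 1594 scaled CPM in early treated, 1791 in late treated, 2852 in 2m AS, 1354 in 5m AS, 2085 in the mixed female library and 2737 in WT. It was thus low in the treated sections as well as in 5m AS. Slc6a20b, an imino acid carrier, and Slc43a2, a carrier of large neutral amino acids, were lower at -1.07 and -1.05. Higher were Slc38a3, the glutamine carrier SNAT3, at 2.56, the amino acid carrier Slc38a2 (SNAT2) at 1.04 and Slc6a20a at 0.62, the last named after its value was seen. Slc7a12 was not among the 17, with 5.53 scaled CPM in 5m AS against 0.395 in WT, and it stood at 39.0 in the mixed female library. Slc38a3 stood at 3.80 scaled CPM in early treated, 4.05 in late treated, 31.2 in 2m AS, 58.5 in 5m AS, 24.4 in the mixed female library and 9.95 in WT. In early treated against 5m AS, 2 of 17 were higher, beside 3.90% of all tested genes, and 5 lower, beside 4.25%. In late treated against 5m AS, 3 of 17 were higher, beside 7.81%, and 6 lower, beside 10.2%.

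Of 24 amino acid enzymes of the proximal tubule, 14 were at least 1.5-fold lower in 5m AS than in WT, beside 14.6% of all tested genes, 2 were at least 1.5-fold higher, beside 8.04%, and the median was -0.82 on the log2 scale. Gldc of the glycine cleavage system stood at -1.59 and Ass1 of arginine synthesis at -1.49. Arg2, the mitochondrial arginase, was higher at 5.00, at 24.9 scaled CPM in 5m AS against 0.775 in WT. In late treated against 5m AS, 8 of 23 measured enzymes were higher, beside 7.81% of all tested genes, and 3 lower, beside 10.2%. Of 8 measured tubule transcription factors, 4 were lower and 2 higher in 5m AS against WT, beside the same 14.6% and 8.04%. Nupr1, a stress-induced regulator, stood at 3.04 and Cebpb at 1.34, while Maf stood at -0.98 and Ppargc1a, a coactivator of mitochondrial genes, at -0.74. These lists were chosen with earlier results in view, and their counts carry no test.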

How the data were processed

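Per the file headers, the authors counted UMIs per gene and spot with Space Ranger 1.2.1 (WT, 5m AS) and 1.3.1 (the other 4 libraries). The deposited values are whole-number counts with no normalization, and the submitters' processing notes name mm10. Annotation version and strand handling are not given in the sources used here. UMIs were summed over all spots (48940875 to 91976637 per library) and scaled with TMM factors of 0.801 to 1.18 from edgeR 4.0.16 in R 4.3.3. Ratios of summed counts have exact 95% Clopper-Pearson intervals, checked on simulated data. They and the floors of 3 counts cover counting error only, since 1 library per group leaves spread between animals unmeasured. A gene was called at 1.5-fold where either library of the pair reached 20 scaled CPM. Bins, classes and correlations used spots with at least 500 UMIs, in Python 3.11.15 with scipy 1.17.1. Spot positions were not used here. Alternatives were plain CPM, median-of-ratios factors (DESeq2 1.42.0), other denominators, a 2-fold criterion, no floor, equal weight per spot, ratios within classes and spots with at least 5000 UMIs. Named were all 8 transporters, the 2 genes most like each, and the genes of each further list with the largest ratio of 5m AS to WT (6 other transporters, 4 elsewhere). 1 gene that this choice names is not reported here. Genes that mark sex, the 4 late genes ranked apart, Lrp2, Spp1, Acy3, Kap, Slco1a1 and Slc6a20a were named after their values were seen. The members, lists and comparisons were chosen with earlier results of these data known. GENCODE vM21 gave gene positions and RefSeq GRCm38.p6 the promoters.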

Additional observations from a re-analysis of the deposited data

Results flagged for a closer look

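5 genes stood on opposite sides of WT in the 2m AS and 5m AS sections. For Slc6a18 the ratio to WT was 0.797 at 2 months, against 1.08 at 5 months. Slc6a19 went the other way, with 1.32 at 2 months, against 0.219 at 5 months. Slc7a8 had 1.05 at 2 months, against 0.511 at 5 months, and Slc7a9 had 1.28, against 0.615 at those ages. Slc3a1 had 1.07 at 2 months, against 0.881 at 5 months. Slc1a1 stood on opposite sides of 5m AS in the treated sections, at 0.830 in early treated and 1.19 in late treated. The side depended on the scaling for 4 of the 6 genes. With plain CPM, Slc7a8 lay below WT at both ages, at log2 ratios of -0.036 at 2 months and -0.57 at 5 months, and Slc3a1 turned round, to -0.0075 at 2 months and 0.22 at 5 months. Per UMI of the general proximal list, Slc7a8 (0.23 at 2 months, 0.20 at 5 months), Slc7a9 (0.53 at 2 months, 0.47 at 5 months) and Slc3a1 (0.26 at 2 months, 0.99 at 5 months) lay above WT at both ages, and Slc1a1 lay below 5m AS in both treated sections, at -0.81 in early treated and -0.49 in late treated. The ages named are those of the AS sections, since the age of the 1 WT library was not found. Each pair of ratios shares a library, each group is 1 section, and the difference was not tested.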

How the results depend on the processing

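With 1 library per group, none of these values measures spread between animals, and ages, sex and software version differ between some libraries. Of 96 counts of transporters under the alternatives, 79 stayed within 1.5 times the reported one. With plain CPM, 1 gene was lower in 5m AS against WT and 1 against 2m AS (4 reported in each), 1 was higher against 2m AS (0 reported), and 1 was lower in early treated against 5m AS (2 reported). Per UMI of the general proximal list, 4 genes were higher and 1 lower in 5m AS against WT and likewise against 2m AS, 1 was higher in early treated against 5m AS, 2 were higher and 2 lower in late treated against 5m AS, and 1 (Slc6a19) was lower in early against late treated. At 2-fold, 1 gene was lower in 5m AS against WT, 1 higher and 1 lower in early treated against 5m AS, and 1 lower in early against late treated. Without mitochondrially encoded genes, 2 genes were lower in late treated against 5m AS. Plain CPM and the general proximal list each shift the log2 ratios of all genes in a comparison equally. The share of all genes past the criterion was not counted under any alternative, so these counts have no such share beside them. Of 432 log2 ratios, 264 moved by more than their counting interval, and 4 called ratios changed sign, all per UMI of the general proximal list: Slc7a7 to 0.25, Slc7a8 to 0.20 and Slc7a9 to 0.47 in 5m AS against WT, and Slc7a7 to 0.16 in 5m AS against 2m AS. The cause was not tested. Of 96 gradients over bins of spots, 1 moved by more than its counting interval with spots of at least 5000 UMIs. With late spots ranked by the 4 late genes, 25 of 32 did, for example Slc6a18 in the mixed female library to 6.52, against 12.5 reported. No paired analysis was possible because each group is 1 library.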
